A study of Mus musculus with 8 samples.

Results

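Accessible chromatin was described at the SLAM receptor locus of mouse chromosome 1, which holds the genes of 8 cell surface receptors: Ly9, Slamf7, Cd48, Slamf1, Cd84, Slamf6, Slamf9 and Slamf8. Overlapping ATAC-seq peaks of all libraries were merged into 90736 regions. A region was taken as part of the locus when its midpoint lay inside the mm10 span of 1 of the 8 genes or within 20 kb of it, and it was given to the nearest gene. By this rule 40 regions belonged to the locus. Of these, 19 lay inside a gene span, and whether they are exonic or intronic was not analysed here.

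The libraries came from bone marrow long-term HSC (haematopoietic stem cells) of mice whose age is labelled as 2 to 3 months, and as 3 months in the design text. All mice carried Vav1-cre, a recombinase driven in blood cells, with an iMOS Bcl11a allele labelled MUT or WT. From each genotype a T1 and a T2 population was sorted, which gave 4 groups of 2 libraries: MUT T1, MUT T2, WT T1 and WT T2. The study asked about the role of Bcl11a, a zinc finger repressor, inside stem cells and about effects of its excess on neighbouring wild-type cells. The sources used here do not give what separates T1 from T2, nor which surface markers defined the sort. Nothing says that the libraries of a group came from separate animals, so p-values measure only the spread between these libraries, which may be technical.

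SLAM receptors are immunoglobulin-type membrane proteins of blood cells. Most of them bind the same receptor on a neighbouring cell and signal through small SH2-domain adaptors of the SAP family and through Src kinases such as FYN. In mouse marrow, long-term stem cells are widely sorted as CD150+ CD48- cells: CD150, the product of Slamf1, marks them, and CD48, which binds CD244 and CD2, appears on most other progenitors. Open chromatin at a gene is not a measure of its product.

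Each library came with its own peak list of 62232 to 74785 peaks on chromosomes 1 to 19 and X. Fold enrichment is the value the authors' peak caller gives for the highest point of a peak (the summit), relative to the local background. It was used to rank peaks within a list. The summit pileup and the local background were also solved from the deposited values. The height is the pileup divided by the genome-wide background of that library, which was 1.89 to 3.38 fragments and was taken as its relative depth. The shallowest were WT T2 replicate 2, MUT T1 replicate 2 and WT T2 replicate 1. Their lists had the highest median fold enrichments (7.66, 7.14 and 7.25), and the deepest, MUT T1 replicate 1, had the lowest (6.16). The label of the cells was checked on promoter windows, and 6 of 6 HSC marker genes with a window in the RefSeq table (Hlf, Mecom, Fgd5, Procr, Kit and Meis1) were open in all 8 libraries. Over 17274 protein-coding genes with a window the share was 60.9%, so these open windows alone say little of the cell type. None of the 3 B cell, 4 T cell, 4 granulocyte and monocyte, 4 erythroid or 3 NK cell markers with a window was open in all 8, although Ebf1 was open in 3 libraries and Mpo in 2. Of the stromal and endothelial markers, Lepr was open in 8 libraries and Cxcl12 in 7. The part of other cells in the values at the SLAM genes was not tested, and in such bulk libraries a smaller share of open cells cannot be told apart from less accessible chromatin in each cell.

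The start sites of the SLAM genes differed in whether a peak covered them. The windows from 250 bases before to 50 bases after the start of Slamf1, Cd48, Slamf8 and Slamf9 were covered in 8 of 8 libraries. That of Slamf7 was covered in 4, and those of Cd84 and Slamf6 in 0. Over 17274 protein-coding genes with such a window, 60.9% were covered in all 8 libraries. The table (RefSeq, GRCm38.p6, the mm10 build) held windows for 7 of the 8 genes, all but Ly9, with 1 start for each gene, and distances are counted from it. Of these, 4 are shown, each on the strand of its gene, because they stand for a start open in all libraries (Slamf1, Cd48), in some (Slamf7) and in none (Cd84). Capitals mark the words searched on both strands: AGATAA with its variant TGATAA for GATA factors, AGGAAG with its variant CGGAAG for ETS factors, TGTGGT with its variant TGCGGT for RUNX factors, and TGACCA, a word bound by BCL11A.
Slamf1 (chr1:171766882-171767181, + strand): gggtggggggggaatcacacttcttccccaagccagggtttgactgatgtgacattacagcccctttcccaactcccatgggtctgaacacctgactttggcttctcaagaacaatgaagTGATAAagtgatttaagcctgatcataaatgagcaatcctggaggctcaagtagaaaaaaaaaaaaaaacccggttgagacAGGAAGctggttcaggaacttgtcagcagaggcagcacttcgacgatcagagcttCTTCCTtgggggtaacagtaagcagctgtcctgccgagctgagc
Cd48 (chr1:171681742-171682041, + strand): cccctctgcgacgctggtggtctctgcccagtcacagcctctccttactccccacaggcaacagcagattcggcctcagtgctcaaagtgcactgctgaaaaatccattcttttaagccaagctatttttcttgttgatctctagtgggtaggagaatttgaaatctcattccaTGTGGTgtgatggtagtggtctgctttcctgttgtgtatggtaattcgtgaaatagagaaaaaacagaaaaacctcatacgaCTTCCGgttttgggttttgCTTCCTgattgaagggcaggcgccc
Slamf7 (chr1:171648950-171649249, - strand): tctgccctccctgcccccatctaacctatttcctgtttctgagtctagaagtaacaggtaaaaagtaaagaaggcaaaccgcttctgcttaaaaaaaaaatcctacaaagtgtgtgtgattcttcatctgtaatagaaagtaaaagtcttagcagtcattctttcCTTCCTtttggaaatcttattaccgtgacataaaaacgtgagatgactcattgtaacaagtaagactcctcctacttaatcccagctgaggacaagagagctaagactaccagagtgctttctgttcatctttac
Cd84 (chr1:171839447-171839746, + strand): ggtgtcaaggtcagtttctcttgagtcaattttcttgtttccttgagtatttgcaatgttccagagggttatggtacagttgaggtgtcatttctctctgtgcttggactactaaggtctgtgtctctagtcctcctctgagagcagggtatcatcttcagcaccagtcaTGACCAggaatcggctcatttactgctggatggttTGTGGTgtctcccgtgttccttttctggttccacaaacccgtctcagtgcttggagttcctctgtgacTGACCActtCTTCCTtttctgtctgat

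The Slamf1 window held TGATAA at position -130 from the start and ETS words at -49 and 6. The Cd48 window held a RUNX word at -76 and ETS words at 6 and 25. The Slamf7 window held 1 ETS word, at -85. The Cd84 window, covered by no peak, held TGACCA at -80 and 23, a RUNX word at -45 and an ETS word at 32. Among the 7 windows, GATA words were in 1, ETS words in 5, RUNX words in 2 and TGACCA in 2 (Cd84 and Slamf8). Over all 21045 windows of the table the shares were 15.8%, 48.4%, 21.4% and 12.6%. The words are descriptions of these letters and not binding sites. The SLAM windows were poor in CpG, with 1 to 7 CpG each and a median of 4, against a median of 13 over the 21045 windows. Their GC content was 39.0% to 52.3% (median 48.3%, against 56.7%).

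Slamf1 and Cd48 were both open in every library, and the peak of the highest fold enrichment in the locus lay at Cd48. At Slamf1 (chr1:171767131-171801184) 7 regions were found, 5 of them in all 8 libraries. Cd48 (chr1:171681245-171705258) had 4 regions, 3 of them in all 8. The strongest, chr1:171698797-171699482, lay inside the Cd48 span with its summit 17.2 kb after the start. Its fold enrichment was 13.6 and 15.1 for MUT T1, 14.7 and 12.9 for MUT T2, 14.8 and 16.2 for WT T1, and 15.6 and 18.98 for WT T2 (replicates 1 and 2). It ranked first among the locus peaks in 8 of 8 lists, and its summits lay within 20 bp of each other. WT T2 replicate 2 was the highest and MUT T2 replicate 2 the lowest, and the values of MUT and WT libraries overlapped. Within each list it stood between percentiles 98.3 and 99.9 of all peaks.

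**Figure D1:**
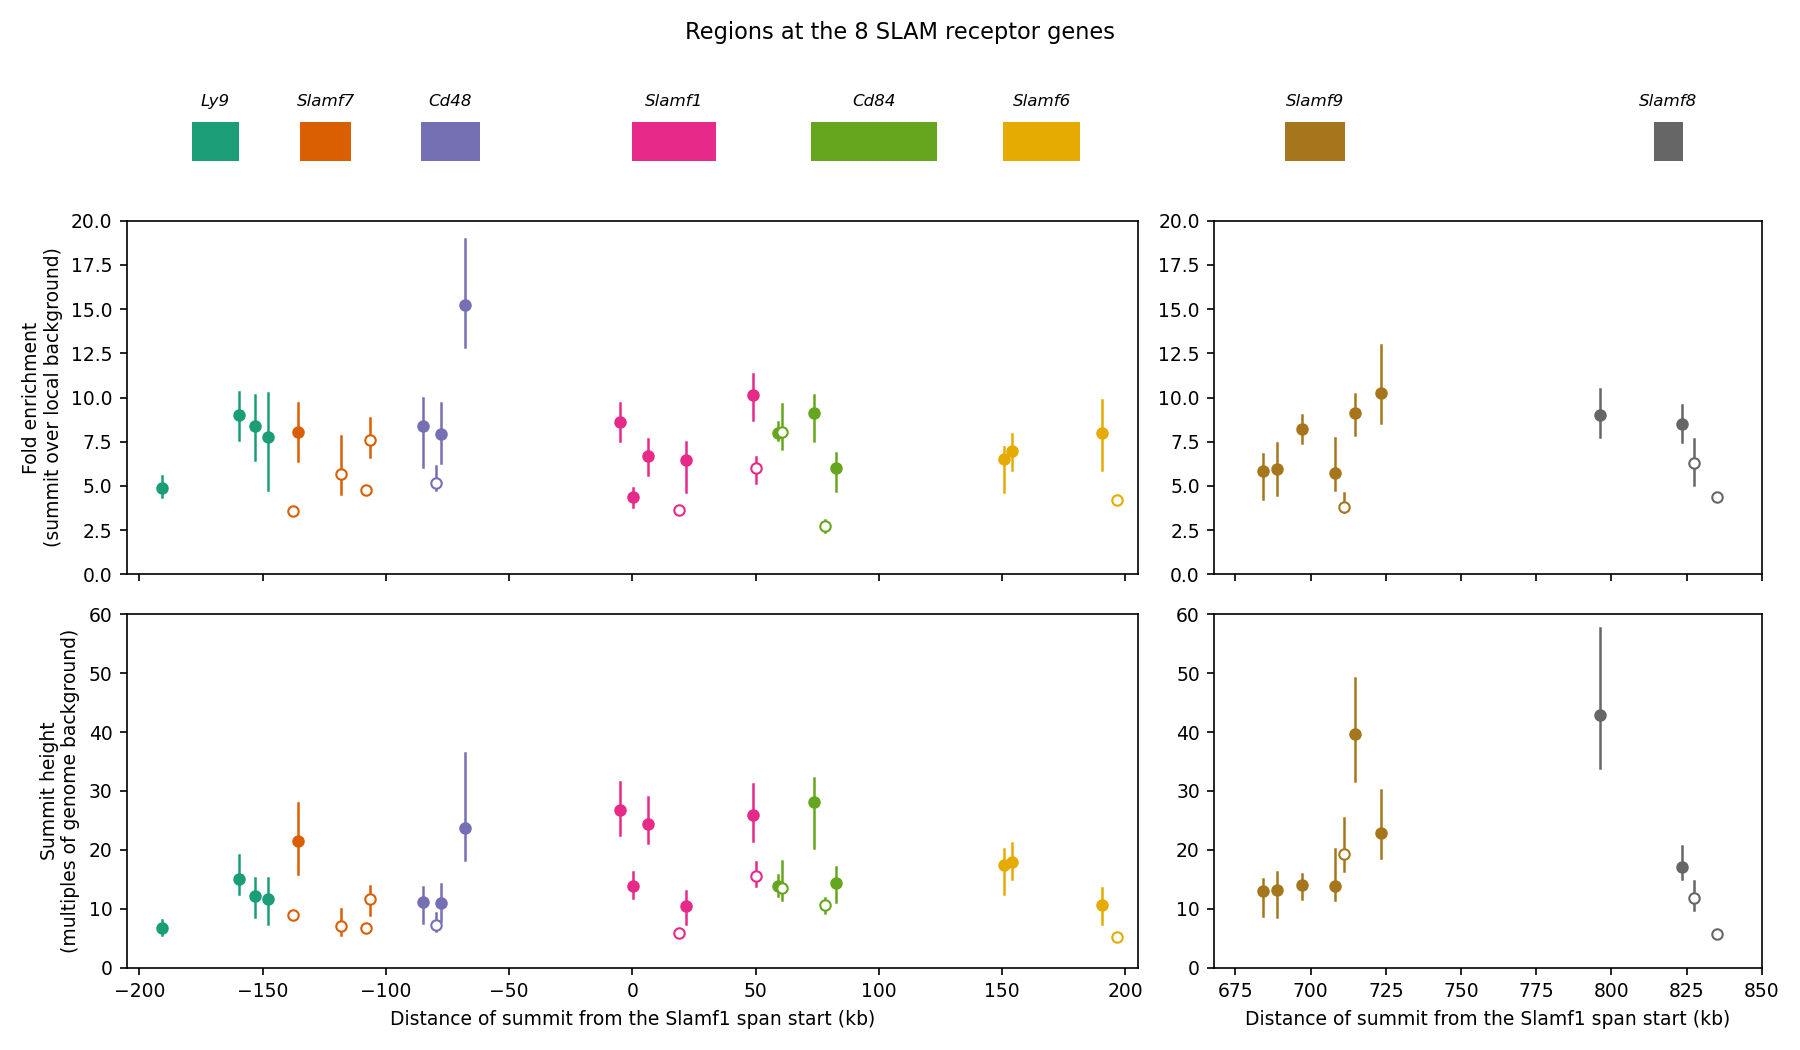
Mean fold enrichment (upper panels) and mean summit height in multiples of the genome background (lower panels) of the 40 regions, by distance from the Slamf1 span start in kb, with lines from the lowest to the highest library, filled points for regions called in all 8 libraries, open points for the others, and boxes for the gene spans. The region inside Cd48 stands highest by fold enrichment at 15.2, and the Slamf1 start region is the lowest filled point at 4.38. By height the highest are a region near Slamf8 in the Vsig8 span (42.8) and one near Slamf9 in the Igsf9 span (39.7).

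The other Cd48 regions were lower. The region over the Cd48 start (chr1:171681627-171682462) had 6.06 and 9.56 for MUT T1, 9.97 and 7.39 for MUT T2, 9.19 and 9.09 for WT T1, and 6.96 and 8.98 for WT T2. The 2 lowest values came from MUT T1 replicate 1 and WT T2 replicate 1. The values of MUT and WT libraries overlapped. The region at 7.32 kb (chr1:171689028-171689776) had a mean fold enrichment of 7.92 ± 1.29 (SD, n = 8).

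The Slamf1 regions had lower fold enrichments than the strongest Cd48 region. The highest, chr1:171815700-171816439, lay beyond the end of the span, 48.9 kb after the start. It had fold enrichments of 8.76 and 9.56 for MUT T1, 11.1 and 9.58 for MUT T2, 11.3 and 10.5 for WT T1, and 11.0 and 9.18 for WT T2. Both MUT T1 libraries lay below both MUT T2 and both WT T1 libraries, by a narrow gap to MUT T2 replicate 2, and overlapped WT T2. Over all regions called in every library, MUT T1 lay below MUT T2 without overlap in 14.6% and below WT T1 in 14.2%. The region upstream of the gene, chr1:171761630-171762908 at -5.09 kb, had 8.60 ± 0.67 (SD, n = 8). Inside the gene, chr1:171772760-171774081 at 6.24 kb had 6.71 ± 0.64, and chr1:171788420-171789260 at 21.7 kb had 6.45 ± 0.97.

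The region over the Slamf1 start, chr1:171767022-171767958, was open in every library but had the lowest fold enrichment of the 27 locus regions called in all 8. Its values were 4.87 and 4.14 for MUT T1, 4.62 and 4.29 for MUT T2, 3.83 and 4.78 for WT T1, and 4.47 and 4.02 for WT T2. All groups overlapped. Only 6.04% of all 49577 regions called in every library had a lower mean fold enrichment. By height it ranked 18 among the 27, with a mean of 13.8, and 24.8% of all regions called in every library were lower. The Cd48 start region had a mean height of 11.2. It was higher than the Slamf1 start region only in WT T2 replicate 2 (13.2 against 12.1), and both were at 13.8 in MUT T1 replicate 2. The Slamf1 start window is the one with the TGATAA word shown above.

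In each library the highest fold enrichment at Cd48 exceeded that at Slamf1. The ratio of Cd48 to Slamf1 was 1.56 and 1.58 for MUT T1, 1.33 and 1.34 for MUT T2, 1.31 and 1.53 for WT T1, and 1.42 and 2.07 for WT T2. The mean log2 difference of Slamf1 minus Cd48 was -0.59 (SD 0.21, n = 8) and it was below 0 in 8 of 8 libraries (exact two-sided permutation test by sign changes, p = 0.0078125, the smallest that 8 libraries can give). Between start regions alone, an alternative added after seeing the data, the difference in fold enrichment was -0.93 (same exact permutation test, p = 0.0078125). The start regions were not tested by height. Without chr1:171698797-171699482, a region left out after it was seen and whose removal can only lower the Cd48 value, the difference was 0.15 (exact permutation p = 0.0703). Genotypes and populations differed in it by less than the spread between libraries. It was -0.53 ± 0.13 in MUT and -0.64 ± 0.29 in WT (SD, n = 4 each; exact two-sided permutation p = 0.629, adjusted over 2 tests 0.943). It was -0.58 ± 0.12 in T1 and -0.60 ± 0.30 in T2 (exact permutation p = 0.943, adjusted 0.943). The smallest p this design allows is 0.0286.

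**Figure D2:**
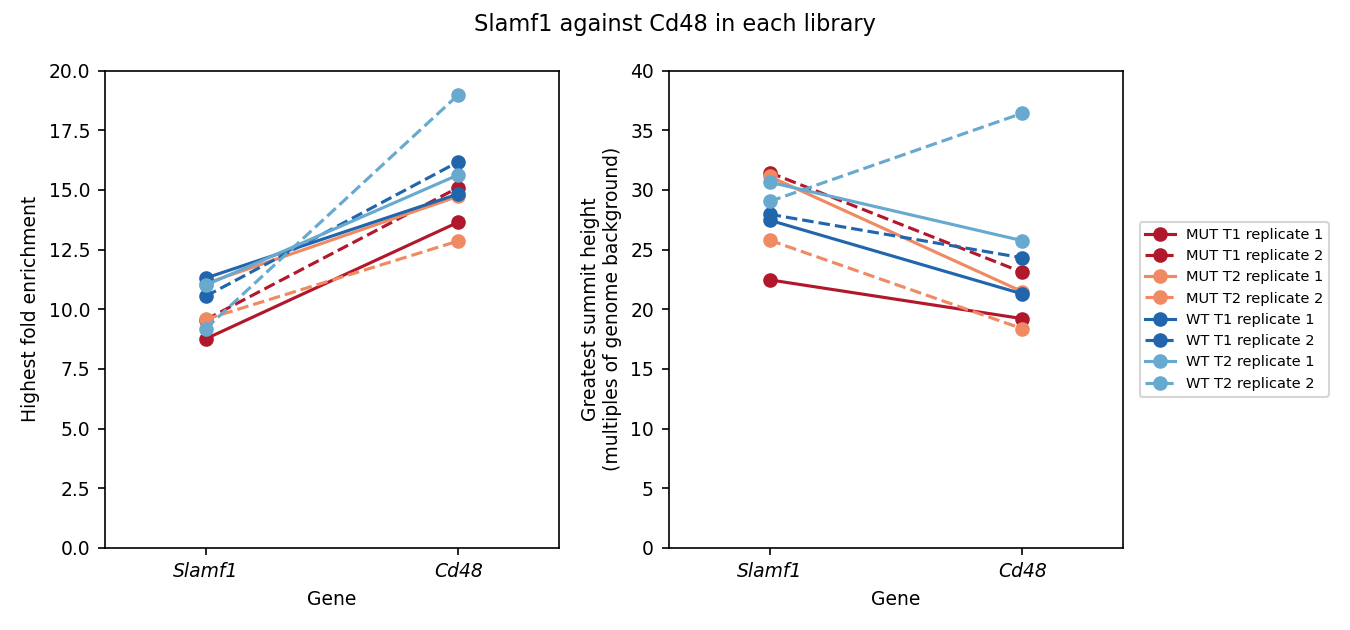
Highest fold enrichment (left) and greatest summit height in multiples of the genome background (right) at Slamf1 and at Cd48 in each of the 8 libraries, coloured by group. By fold enrichment Cd48 lies above Slamf1 in 8 of 8 libraries, by a ratio of 1.31 to 2.07. By height Slamf1 lies above Cd48 in 7 of 8 libraries.

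The order of Slamf1 and Cd48 turned with the measure. By height, the highest region at Slamf1 exceeded that at Cd48 in 7 of 8 libraries, with a mean log2 difference of 0.27 (SD 0.27, exact two-sided permutation test by sign changes, p = 0.0390625) and a geometric mean ratio of 1.21. WT T2 replicate 2 was the exception, and without it the ratio was 1.28. The highest was taken over 5 to 7 peaks a library at Slamf1 and over 3 to 4 at Cd48. Taking it over more peaks favours Slamf1, and this was not adjusted for. At Cd48 it was the region at 17.2 kb in 8 of 8 libraries. At Slamf1 the region varied, and that at -5.09 kb was the highest in 5. The heights of the Cd48 region at 17.2 kb were 19.2 and 23.1 for MUT T1, 21.5 and 18.4 for MUT T2, 21.3 and 24.3 for WT T1, and 25.7 and 36.4 for WT T2. The greatest Slamf1 heights, which the test used, were 22.5 and 31.4, 31.1 and 25.8, 27.5 and 28.0, and 30.6 and 29.0 in the same order. The Slamf1 region at 48.9 kb, the highest there by fold enrichment, had heights of 21.6 and 26.0, 31.1 and 23.5, 25.6 and 24.9, and 29.8 and 24.8. Fold enrichment divides the summit by its surroundings, and these differed between the genes. The local background, relative to that of the genome, averaged 1.01 at the Cd48 start, 1.06 at 7.32 kb and 1.19 at 17.2 kb. At Slamf1 it averaged 2.79 at -5.09 kb, 2.88 at the start, 3.32 at 6.24 kb, 1.32 at 21.7 kb and 2.23 at 48.9 kb. Over all regions called in every library the median was 2.26. All 3 Cd48 regions lay below that median and 3 of the 5 Slamf1 regions above it.

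**Figure D3:**
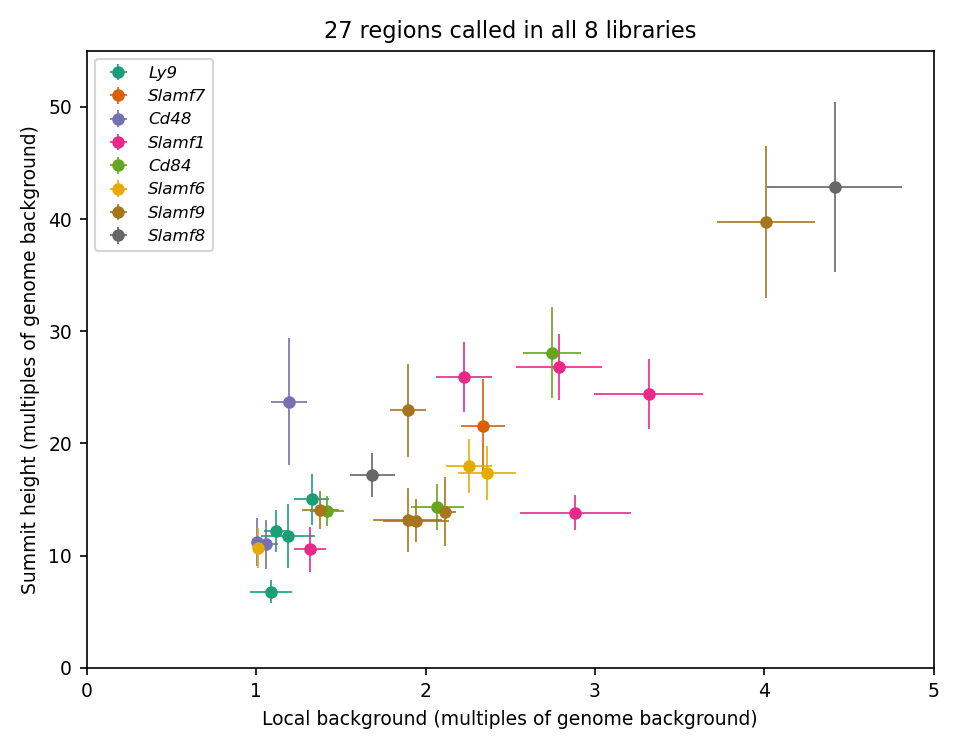
Mean height (y axis) against mean local background (x axis), both relative to the genome background, of the locus regions called in all 8 libraries, with error bars of 1 SD over 8 libraries. Cd48 regions lie at a local background of 1.01 to 1.19 and Slamf1 regions at 1.32 to 3.32.

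By fold enrichment, the strongest peaks at the other receptors were also below that of Cd48. Cd84 encodes a self-binding receptor of platelets and leukocytes, and its strongest region, chr1:171840137-171841095, began just after the start window with its summit at 0.948 kb. The fold enrichment there was 10.1 and 8.43 for MUT T1, 8.78 and 7.57 for MUT T2, 8.53 and 9.87 for WT T1, and 9.98 and 9.49 for WT T2, with MUT T2 replicate 2 lowest. Cd84 had 5 regions, 3 of them in all 8 libraries. Slamf6, known as Ly108 and as a receptor of T and NK cells, had 4 regions, 3 in all 8. Its first region also lay just after the start, with its summit at 0.471 kb (chr1:171917574-171918229, in a stretch that also lies in the span of Gm37065), and its strongest by mean, chr1:171957151-171957856, lay 40.1 kb from the start with 7.99 ± 1.17 (SD, n = 8).

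Ly9, which encodes the self-binding receptor CD229, had 4 regions and all 4 were called in every library. The strongest, chr1:171606810-171607604, had 10.3 and 10.1 for MUT T1, 9.22 and 7.62 for MUT T2, 8.74 and 9.88 for WT T1, and 8.55 and 7.88 for WT T2. Both MUT T1 libraries were above the other 6. Over all regions called in every library, MUT T1 lay above WT T1 without overlap in 16.1% and above MUT T2 in 10.9%. The share above all other libraries was not counted. Slamf7, the receptor CD319 of NK and plasma cells, was the least evenly open gene: of its 5 regions 1 was in all 8 libraries. That region, chr1:171631112-171632089, lay 17.4 kb downstream of the start and had 8.08 ± 1.33 (SD, n = 8).

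Slamf8 and Slamf9, which lie apart from the others and lack the cytoplasmic switch motif of the family, had 4 and 7 regions, 2 and 6 of them in all 8. The Slamf8 start region (chr1:172590222-172590978) had 8.53 ± 0.78, and the Slamf9 start region (chr1:172475020-172475593) 5.72 ± 1.06 (SD, n = 8). Their strongest regions lay in neighbouring genes: chr1:172562024-172563756 in the Vsig8 span, with 8.99 ± 0.90, and chr1:172490130-172490954 in the Igsf9 span, with 10.3 ± 1.54. The latter had 9.25 and 9.17 for MUT T1, 8.59 and 9.11 for MUT T2, 11.9 and 10.7 for WT T1, and 10.4 and 13.0 for WT T2. All 4 WT libraries were above all 4 MUT libraries, the one region of 27 that separated the genotypes in this direction by fold enrichment (2.46% of all regions did). By height its genotypes overlapped narrowly, with 22.60 in MUT T1 replicate 2 and 22.48 in WT T1 replicate 2.

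Ordered by the mean of the highest fold enrichment per library, Cd48 led with 15.2 ± 1.84, followed by Slamf9 at 10.5 ± 1.37, Slamf1 at 10.1 ± 0.97, Ly9 at 9.50 ± 0.74, Cd84 at 9.33 ± 0.72, Slamf8 at 9.27 ± 0.68, Slamf7 at 8.54 ± 0.96 and Slamf6 at 8.19 ± 0.87 (SD, n = 8). Cd48 was above Slamf9 in 8 of 8 libraries. The other neighbours in this order kept it in 4 to 7 of 8 libraries, and their differences were not tested. By height the order was Slamf8 (42.8), Slamf9 (39.7), Slamf1 (28.2), Cd84 (28.1), Cd48 (23.7), Slamf7 (21.6), Slamf6 (19.2) and Ly9 (15.3). The first 2 of these values came from regions in neighbouring genes. They were chr1:172562024-172563756 in the Vsig8 span and chr1:172481373-172482492 in the Igsf9 span. The start regions of Slamf8 and Slamf9 had mean heights of 17.2 and 13.9.

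Beside all regions of the genome, the locus stood as follows, with no test made. Of its 40 regions 27 (67.5%) were called in all 8 libraries, against 54.6% of all regions, and 4 of the 40 in 1 library only, against 11.6%. The median of the mean fold enrichments of the 27 was 8.01, against 7.71 over all regions called in every library. Their median height was 14.3, against 20.3, and their median length was 827 bp, against 927 bp. The number of locus regions called was 35 and 32 for MUT T1, 37 and 33 for MUT T2, 33 and 33 for WT T1, and 33 and 30 for WT T2. WT T2 replicate 2, with the shortest list, had the fewest.

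**Figure D4:**
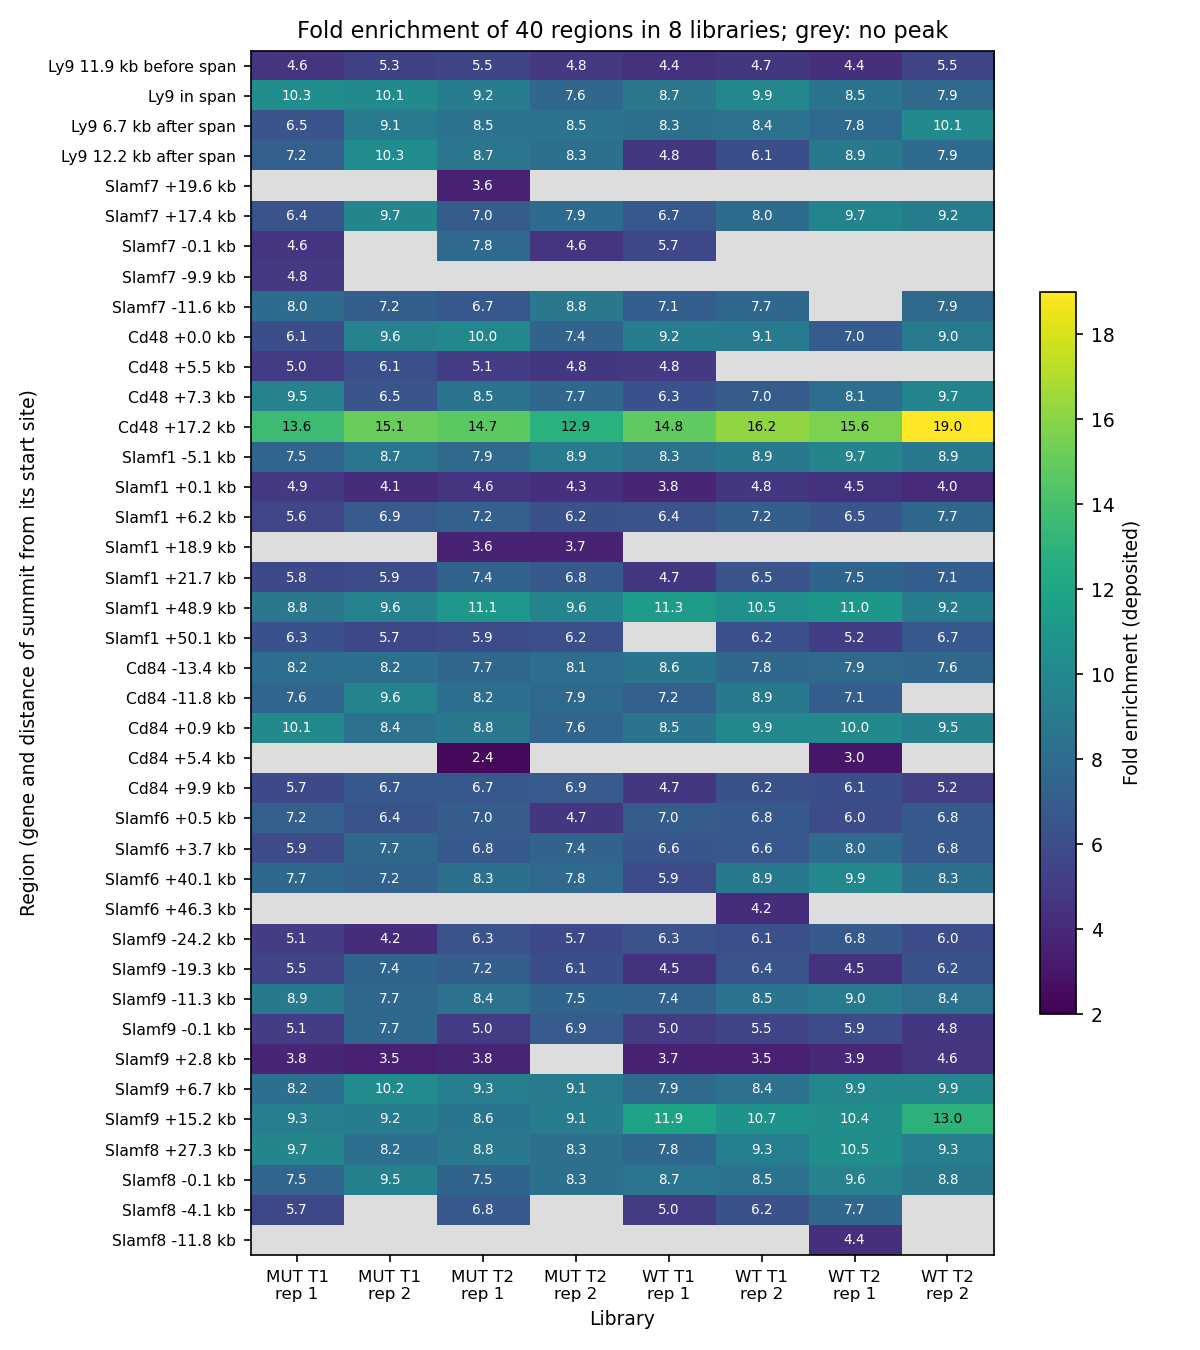
Fold enrichment of the 40 SLAM locus regions (y axis, by gene and distance of the summit from its start site) in each of the 8 libraries (x axis), with colour and printed value for the fold enrichment and grey where no peak was called. The number of regions called runs from 30 in WT T2 replicate 2 to 37 in MUT T2 replicate 1.

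MUT T2 and WT T2 differed at 3 regions in presence, which were called in both MUT T2 libraries and in neither WT T2 library. That is 7.5% of the 40, against 3.95% of all regions, and 0 changed the other way (0.457% of all regions). The first lay over the Slamf7 start (chr1:171648883-171649305) with 7.83 and 4.63 in MUT T2, and it was also called in MUT T1 replicate 1 at 4.56 and WT T1 replicate 1 at 5.66. It covers the Slamf7 window shown above. The second lay inside Cd48 at 5.55 kb (chr1:171687312-171687717), with 5.04 and 6.14 for MUT T1, 5.09 and 4.78 for MUT T2 and 4.81 for the first WT T1 library. The third lay inside Slamf1 at 18.9 kb (chr1:171785836-171786079) and was called only in MUT T2, at 3.63 and 3.67.

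The Slamf1 peak at 18.9 kb lay close to what the lists could hold, and the other 2 lay higher. At the genome background the lowest fold enrichment in a list was 3.32 and 3.41 in MUT T2 but 3.48 and 3.80 in the shallower WT T2 libraries. With the same number of peaks taken from each list, 62232, 0 of the 3 separated MUT T2 from WT T2. The share over all regions was not counted for lists of equal number. A region missing from a list may be open there below its threshold, and the part of depth in these differences was not tested.

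MUT T1 against MUT T2 differed in presence at 1 region, the Slamf1 region at 18.9 kb, absent from both MUT T1 libraries (1.74% of all regions were lost in this comparison and 0.641% gained). It was at 0 of the 40 with lists of equal number. The remaining comparisons had 0 regions gained and 0 lost among the 40. The shares over all regions were 1.26% gained and 2.13% lost for MUT T1 against WT T1, 3.90% and 0.632% for WT T1 against WT T2, 0.222% and 0.0606% for all MUT against all WT, and 0.0507% and 0.0265% for all T1 against all T2.

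Heights were tested with limma over the 49571 regions that had one in every library, with Benjamini-Hochberg adjustment. At an adjusted p under 0.05, 0 of the 27 locus regions passed in any of the 6 comparisons, nor did any in the difference of the MUT against WT change between T1 and T2. Over all regions, 0.0504% passed as higher and 0.00403% as lower in MUT T1 against WT T1, 0.00202% and 0.153% in WT T1 against WT T2, and 0.0545% and 0.0323% in all MUT against all WT. In MUT T2 against WT T2, MUT T1 against MUT T2 and all T1 against all T2, 0 passed. At an unadjusted p under 0.05 there were 1, 4, 0, 5, 4 and 2 locus regions, in the order MUT T1 against WT T1, MUT T2 against WT T2, MUT T1 against MUT T2, WT T1 against WT T2, all MUT against all WT and all T1 against all T2. In the same order, the shares over all regions were 5.24%, 21.4%, 1.94%, 23.3%, 8.64% and 7.82%. With limma on the deposited fold enrichment 0 passed in each as well. In simulated data for all MUT against all WT, 70% of changes of 1 on the log2 scale and 98% of changes of 2 were recovered. The simulated libraries held no shift of a whole library, and the changed regions were drawn from all regions. Comparisons of 2 libraries against 2 were not simulated, so these rates do not apply to them.

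Over the genome background the scale itself moved: the median log2 height difference of all regions was -0.26 for MUT T2 against WT T2, -0.27 for WT T1 against WT T2, -0.12 for all MUT against all WT and -0.12 for all T1 against all T2. The locus medians were -0.11, -0.11, -0.05 and -0.08. With height over the median height of each library the locus medians turned to 0.12, 0.14, 0.05 and 0.03. In MUT T2 against WT T2, 20 of the 27 regions were then higher and 7 lower, in place of 7 and 20. Regions higher or lower were not counted over all regions in either scaling, so these counts show no gain or loss at the locus. Without overlap between the groups, 11 of the 27 regions were higher in WT T2 than in MUT T2, against 55.6% of all regions.

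The largest height difference of the locus in MUT T1 against WT T1 was near Ly9. At chr1:171618915-171620230, beyond the end of the Ly9 span, the height was 11.5 and 15.2 for MUT T1, 14.9 and 11.6 for MUT T2, 7.40 and 8.20 for WT T1, and 13.5 and 11.6 for WT T2. Both WT T1 libraries lay below the other 6. Over all regions, WT T1 heights lay below MUT T1 without overlap in 15.6% and below WT T2 in 58.9%. This region was chosen after its values were seen. The log2 difference was 0.77 (SE 0.22, limma adjusted p = 0.288) for MUT T1 against WT T1 and -0.68 (SE 0.22, limma adjusted p = 0.109) for WT T1 against WT T2. Neither passed, although the second had an adjusted p of 0.0486 in limma fits without either MUT T1 library, in which 4.88% of all regions passed as lower.

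For the Cd48 region at 17.2 kb the log2 height difference was -0.62 (SE 0.22, limma adjusted p = 0.168) in MUT T2 against WT T2, the comparison in which it was largest. Without WT T2 replicate 2, the library with the highest value, it was -0.37, and over all libraries left out in turn limma adjusted p ranged from 0.0746 to 0.690. For the Slamf1 region at 48.9 kb it was -0.01 (SE 0.22, limma adjusted p = 0.985), and for the Slamf1 start region 0.11 (SE 0.21, limma adjusted p = 0.772).

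By height, 2 of the 27 regions were higher in every T2 than in any T1 library (7.41%, against 1.89% of all regions). The gap was narrow at a region near Slamf9 (chr1:172450827-172451374), with at most 13.67 in T1 and at least 13.69 in T2. The other was the Slamf1 region at 21.7 kb. Its height was 9.16 and 9.34 for MUT T1, 13.1 and 11.0 for MUT T2, 7.40 and 9.72 for WT T1, and 12.7 and 12.1 for WT T2. All 4 T2 libraries lay above all 4 T1 libraries, by height and by fold enrichment. By fold enrichment it was the only such region of the 27, against 2.97% of all regions. The log2 height difference of T1 against T2 was -0.46 (SE 0.15, limma adjusted p = 0.600), which did not pass.

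The partners of the receptors were examined in the same way. Of 14 genes of SLAM adaptors and signalling, 13 had at least 1 of the 92 regions within 20 kb, and 47 of the regions were called in all 8 libraries. Over all regions 54.6% were. Sh2d1a, the gene of SAP, had none. Sh2d1b1, the gene of the adaptor EAT-2, had 1 region in all 8 libraries (highest fold enrichment 5.19 to 10.3), while that of its paralogue Sh2d1b2 was called in fewer. Fyn, the kinase recruited by SAP, had 19 regions, 10 of them in all 8 (9.32 to 12.5), and Prkcq, a kinase that acts with it in T cells, had 14, with 8 in all 8 (13.2 to 17.6). Cd244a, the receptor for CD48, had 5 regions, 1 of them in all 8, and a start window covered in 5 libraries. In MUT T2 against WT T2, 7 of the 92 were gained and 1 lost (3.95% and 0.457% of all regions), and in WT T1 against WT T2 also 7 and 1 (3.90% and 0.632%). In MUT T1 against WT T1, 1 was gained and 4 lost (1.26% and 2.13%), and in MUT T1 against MUT T2, 0 and 5 (0.641% and 1.74%). Among 9 surface genes used in stem cell gates, 35 regions were found, 18 in all 8, and the start windows of Kit, Cd34, Flt3, Itga2b, Procr and Eng were covered in 8 of 8 libraries. By limma 0 regions of either list passed in any comparison.

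The genes whose highest fold enrichment, within 1 kb of the gene span, ran closest to that of Slamf1 over the 8 libraries were Trim8, Tmem159 and Tprgl, with mean absolute log2 differences of 0.038, 0.042 and 0.045 among 15820 genes. Within that narrower window Slamf1 ranged from 5.76 to 7.67. Closest to Cd48 were P3h3, Zbtb46 and Cdc14a, with 0.056, 0.063 and 0.067.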

How the data were processed

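Transposase-accessible chromatin was measured in 8 libraries (4 groups of 2). Per the labels' protocols, 5000 nuclei per sample went into a Nextera transposition (37 °C, 30 min) before PCR. Bowtie2, SAMtools, MACS2 and mm10 are named in the submitters' processing notes, without versions. The sources used here do not say if reads were offset to the transposase cut. The authors deposited 1 narrowPeak list per library with, for each peak, the summit, its fold enrichment (a ratio) and the −log10 of its p-value and of its q-value. The lowest deposited −log10 q-value was 3.00 to 3.04. Replicates were not pooled.

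Peaks on chromosomes 1 to 19 and X that overlapped by at least 1 bp were merged. A region was called in a library whose peak overlapped it, gained when called in every library of the first group and none of the other, and lost when the opposite held. As MACS2 writes (pileup + 1)/(local background + 1) and a Poisson p-value, pileup and local background were solved for each peak. At least 99.9986% of the peaks tried returned the deposited −log10 p within 0.001, and peaks whose −log10 p exceeded 300 (5 to 7 a library) were left out. In simulated lists 100% of 16000 pileups were exact. The lowest local background was taken as the relative depth, since read totals are not in the lists, and no counting interval was formed.

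Log2 heights were fitted with limma 3.58.1 (R 4.3.3, 4 group means, tested on simulated data). Single differences were tested by exact permutation with Python 3.11.15 and scipy 1.17.1. Alternatives covered the measure, thresholds, merging, flank, list length, scaling, a replicate block and each library left out.

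The member genes, gene lists and regions were chosen with earlier results of these data known. Named were all regions of Slamf1 and Cd48 called in all 8 libraries, the strongest region of each other gene, and any gained, lost or past the limma threshold. Start regions of the other genes and the Ly9 region beyond its span were added after their values were seen. Gene spans and promoter windows came from RefSeq tables of GRCm38.p6.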

Additional observations from a re-analysis of the deposited data

Results flagged for a closer look

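Among 68 sets of 4 libraries (all MUT, all WT, all T1 or all T2), 5 held a library far from the other 3. For separate sets chance would give about 1 in 20. These sets share libraries, and the highest values at Slamf1 and at Cd48 were counted again as single regions, so that rate is only a rough guide. At Slamf9 the highest fold enrichment was 10.2 in MUT T1 replicate 2, against 9.11 to 9.26 in the other MUT libraries. The log2 difference of Slamf1 minus Cd48 was -0.39 in WT T1 replicate 1, against -0.66 to -0.62 in the other T1 libraries. It was -1.05 in WT T2 replicate 2, the shallowest library, against -0.51 to -0.41 in the other T2 libraries. At the Cd48 start region the fold enrichment was 6.96 in WT T2 replicate 1, against 8.98 to 9.19 in the other WT libraries. In the same region it was 6.06 in MUT T1 replicate 1, the deepest library, against 9.09 to 9.56 in the other T1 libraries.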

How the results depend on the processing

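The log2 difference of Slamf1 minus Cd48 stayed below 0 with the median over the peaks of each gene, a 5 kb flank, regions inside the spans or start regions, and without each library in turn (-0.62 to -0.52, exact permutation p = 0.015625, the smallest possible with 7). It turned to 0.27 by height, to 0.36 by height without WT T2 replicate 2, and to 0.15 without the highest Cd48 region. Without the 3 shallowest libraries it was -0.50 (exact permutation p = 0.0625, the smallest that 5 allow). The last 3 settings, the spans and the start regions were chosen after seeing the data.

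A 5 kb flank left 25 regions, because fewer bases were searched. With the same number of peaks per library, the regions gained were 1 (Cd48 at 5.55 kb) for MUT T1 against WT T1 and 0 for MUT T2 against WT T2, and 0 were lost for MUT T1 against MUT T2. Leaving out each library, with fewer calls then required, gave gains of 0 to 1 for MUT T1 against WT T1, MUT T1 against MUT T2 and all MUT against all WT, 3 to 4 for MUT T2 against WT T2 and 0 to 2 for WT T1 against WT T2. Losses were 0 to 1 for MUT T1 against WT T1 and MUT T2 against WT T2, 1 to 3 for MUT T1 against MUT T2 and 0 to 2 for WT T1 against WT T2. The single gain of all MUT against all WT, the Cd48 region at 5.55 kb, appeared without WT T1 replicate 1. For these alternatives no share over all regions was counted. The shares given above belong to the full lists of all 8 libraries and cannot be set beside these counts.

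By limma, 0 to 1 of the 27 regions passed in WT T1 against WT T2 without a library (1 without either MUT T1 library, fits in which 4.88% of all regions passed as lower) and 0 in the other comparisons. A fit with the replicate number as a block passed 0. The correlation of same-numbered libraries was 0.0248 to 0.115, and with 2 numbers a group they share only a number. Depth limits which weak peaks a list can hold.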
